A study of Mus musculus with 10 samples.

Results

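The 9 genes described here code for integrin chains (*Itga2*, *Itga3*, *Itga6*, *Itgav*, *Itgb1*, *Itgb4* and *Itgb6*) and for chains of a laminin (*Lama3* and *Lamb3*). They were taken by name, not by their values, and are 9 of the 17290 protein-coding genes over which any library held a peak. A gene was measured over its body with 5 kb on each side (GRCm38, GENCODE release M21), and peaks of all libraries that shared at least 1 bp were merged into a site. The 9 genes held 87 of the 85680 sites of the genome. Open chromatin was mapped by Omni-ATAC-seq, in which a transposase cuts and tags accessible DNA, in live sorted cells of mouse colon organoids. WT organoids grown in WENR gave 2 libraries and AHR KO organoids in WENR gave 3. WT organoids at d4 ENR, 4 days after Wnt3a was withdrawn, gave 3 libraries and AHR KO organoids at d4 ENR gave 2. Per the study's methods AHR KO organoids came from Villin Cre Ahr fl/fl mice, in which Cre is expressed in the intestinal epithelium, WT organoids came from littermates, and all mice were C57BL/6 of an age that is not given in the sources used here. WENR contains Wnt3a-conditioned medium together with EGF, Noggin and R-spondin, and differs from ENR in its small-molecule supplements as well, so that withdrawal of Wnt3a and of these supplements cannot be told apart. The sources used here do not say that libraries of a group came from separate mice, so p-values measure the spread between these libraries.

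Integrins are cell surface receptors made of an alpha and a beta chain that tie the cytoskeleton to the extracellular matrix. In the intestinal epithelium, alpha 6 paired with beta 4 anchors the basal cell surface to laminin in hemidesmosomes, while alpha 2, alpha 3 and alpha 6 paired with beta 1 bind collagen and laminins. Alpha v paired with beta 6 binds ligands with an RGD motif, among them the latent form of TGF-beta. *Lama3* and *Lamb3* code for the alpha and beta chains of laminin-332, a basement membrane laminin that is a ligand of the alpha 3 and alpha 6 integrins. Several of these genes are known targets of YAP1 and TEAD, which act through matrix and tension signals in regenerating epithelium.

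The sequences below show the letters under the sites that divide the groups, and the windows upstream of the alternative starts of *Itgb6*. All site sequences are on the plus strand of GRCm38, and capitals mark matches to the TEAD letters ACATTCC or GCATTCC, the AP-1 letters TGACTCA or TGAGTCA, the ETS letters CCGGAAGT or the AHR:ARNT letters TNGCGTG on either strand. The first 3 stretches come from sites that all 5 WENR libraries held and d4 ENR lacked, in intron 1 of *Itga6*, intron 1 of *Itgb6* and intron 1 of *Itga3*.
*Itga6* at chr2:71790377-71790473: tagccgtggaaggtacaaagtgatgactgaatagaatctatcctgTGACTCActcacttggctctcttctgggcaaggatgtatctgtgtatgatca
*Itgb6* at chr2:60701178-60701274: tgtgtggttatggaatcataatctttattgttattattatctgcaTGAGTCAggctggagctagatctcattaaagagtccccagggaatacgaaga
*Itga3* at chr11:95070333-95070429: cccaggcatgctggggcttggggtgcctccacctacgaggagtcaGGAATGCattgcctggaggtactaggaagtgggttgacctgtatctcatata
The next stretches come from *Itgb6*. The site in intron 13 held peaks in all 5 WENR libraries and in 1 of 5 d4 ENR libraries, and its core carries 2 TEAD matches and 1 AP-1 match. The site in intron 1 was called in all 10 libraries and carries a TEAD and an AP-1 match close together.
*Itgb6* intron 13 at chr2:60627534-60627690: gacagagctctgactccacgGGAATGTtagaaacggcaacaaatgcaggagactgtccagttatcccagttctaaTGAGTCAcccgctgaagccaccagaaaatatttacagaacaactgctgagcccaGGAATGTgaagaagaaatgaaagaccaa
*Itgb6* intron 1 at chr2:60703402-60703498: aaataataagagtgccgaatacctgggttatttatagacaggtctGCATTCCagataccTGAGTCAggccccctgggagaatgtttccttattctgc
The following 2 stretches are the middles of 2 of the 3 sites that within d4 ENR only the 2 AHR KO libraries held, and neither carries any of these letters. The remaining such site, in intron 1 of *Itgb6*, is not shown and carries an AP-1 match away from its middle.
*Itgav* intron 12 at chr2:83771467-83771557: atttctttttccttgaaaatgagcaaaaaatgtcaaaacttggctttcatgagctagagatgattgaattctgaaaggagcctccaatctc
*Itgb1* intron 1 at chr8:128697987-128698077: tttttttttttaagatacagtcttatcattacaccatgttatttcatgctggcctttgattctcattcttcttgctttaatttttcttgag
*Itgb6* has 2 RefSeq starts, and the stretches from 250 to 71 bases before each are shown on the minus strand, as the gene is read. The outer start had no peak in any library, and the inner start lay in the site of the gene with the highest median enrichment in WENR. Neither window carries any of these letters.
*Itgb6* outer start at chr2:60722674-60722853: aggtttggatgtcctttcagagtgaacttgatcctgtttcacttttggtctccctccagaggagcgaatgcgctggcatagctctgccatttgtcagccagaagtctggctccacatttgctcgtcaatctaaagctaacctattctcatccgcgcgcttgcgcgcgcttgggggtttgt
*Itgb6* inner start at chr2:60673764-60673943: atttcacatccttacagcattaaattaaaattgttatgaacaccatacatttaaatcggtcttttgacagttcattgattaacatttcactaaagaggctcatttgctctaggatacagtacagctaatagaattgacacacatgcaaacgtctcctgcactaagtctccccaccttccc

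The libraries differed in ways that touch every gene. They held 30354729 to 49126792 fragments, and peaks covered 61.85 to 67.21 Mb in the 5 WENR libraries, 26.22 to 40.96 Mb in the 3 WT d4 ENR libraries and 46.56 to 50.09 Mb in the 2 AHR KO d4 ENR libraries. The share of sequenced coverage inside peaks was 63.0 to 68.6% in WENR, 14.1 to 30.9% in WT d4 ENR and 33.8 to 44.2% in AHR KO d4 ENR, so an absent peak means that a site did not pass the caller's threshold in that library. Peaks over the targeted gene *Ahr* covered 2142 and 2544 bases in WT and 5130, 5346 and 7017 bases in AHR KO libraries in WENR, and peak lists cannot show whether the floxed exon was removed. All 8 epithelial marker genes (among them *Epcam* and *Cdx2*) had a peak within 1 kb of a start in all 10 libraries. Immune markers had none in 5 of 6 genes and endothelial markers none in 3 of 4. The 6 fibroblast markers summed to 3424 to 4078 covered bases in WENR and 702 to 1774 in d4 ENR. Of these, *Pdgfra* and *Col1a1* had a peak in all 10 libraries and *Twist1* in 8. *Pdgfrb* was covered in the 5 WENR libraries alone, and *Col3a1* and *Dcn* were at 0 throughout. The part of these differences in the results below was not tested.

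All 9 genes had less of their length inside peaks in d4 ENR than in WENR by their group means, and for 7 of the 9 every d4 ENR library lay below every WENR library of the same genotype. The 7 were *Itga3*, *Itga6*, *Itgav*, *Itgb1*, *Itgb4*, *Itgb6* and *Lama3*. The same order was found for 51.3% of the 17290 genes tested. In these bulk libraries fewer cells with an open site and less accessible DNA per cell cannot be told apart. The median member kept 60.4% of its WENR cover in d4 ENR, beside 71.6% over 17023 genes. By genotype the members' median was 58.6% in WT and 62.2% in AHR KO, while the median over all genes was 60.4% in WT and 82.9% in AHR KO. With lists shortened to the length of the shortest, 4 of the 9 were called, beside 34.9% of genes. The median share was then 82.8%, beside 83.0% over all genes. When covered bases were divided by each library's own total, *Itga6* and *Itgb6* were the only members below WENR in all d4 ENR libraries of both genotypes, beside 11.5% of genes. On that scale the difference turned positive for *Itga2*, *Itga3*, *Itgav* and *Lamb3*. The members' median share was then 98.3%, and the median over all genes rose as well and lay above it.

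**Figure D1:**
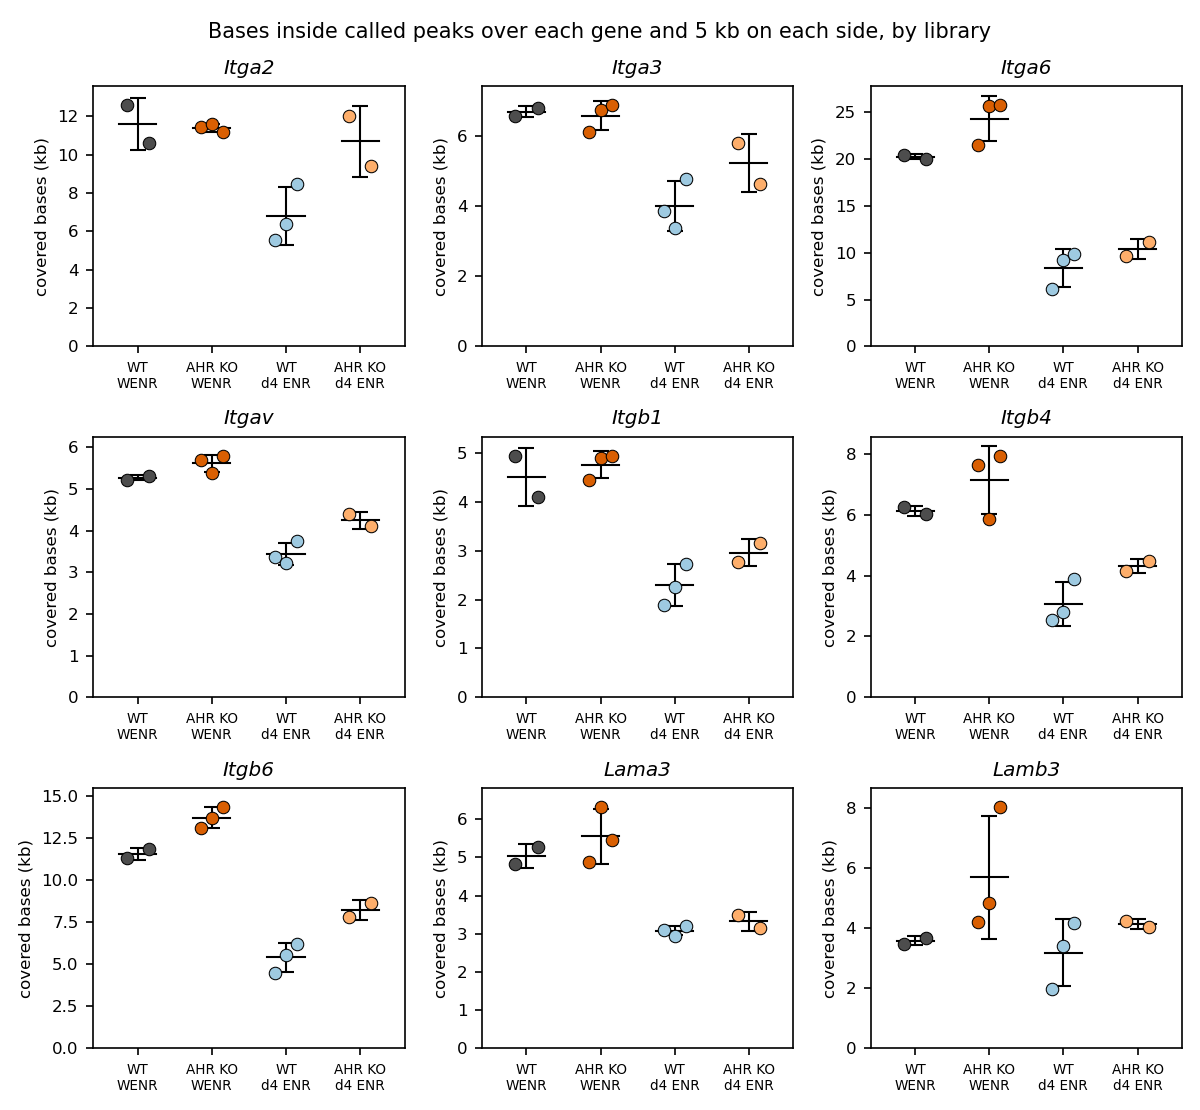
Bases inside called peaks (kb, linear axis from 0) over each of the 9 genes with 5 kb on each side, with 1 point per library, the group mean as a line and the SD as a bar (n = 2 in WT WENR and AHR KO d4 ENR, n = 3 in AHR KO WENR and WT d4 ENR). The d4 ENR points lie below all WENR points of their genotype for every gene other than *Itga2* and *Lamb3*.

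*Itga6*, the alpha chain of the hemidesmosome receptor, had the largest loss of the 9 in covered bases with the full lists. It lies on the plus strand of chromosome 2 from 71745616 to 71858416 (ENSMUSG00000027111.15). Peaks covered 20429 and 20056 bases in WT WENR, 21528, 25628 and 25755 in AHR KO WENR, 6083, 9244 and 9836 in WT d4 ENR, and 9637 and 11177 in AHR KO d4 ENR. The WENR and d4 ENR libraries were far apart, and within d4 ENR the genotypes overlapped. The difference of d4 ENR minus WENR was −12876 bases (2-sided exact permutation test that shuffled media inside each genotype, p = 0.02, the lowest that 100 arrangements allow, and 0.0387 after Benjamini-Hochberg adjustment over all 17290 genes). The gene kept 41.4% of its WENR cover in WT and 42.8% in AHR KO. With all lists shortened to the length of the shortest, the difference was −1168 bases (exact permutation p = 0.06). That was a smaller loss than those of *Itgb6* (−4115 bases) and *Itgav* (−1296 bases) with the same lists.

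The loss at *Itga6* fell along the gene in a pattern that the map of its peaks shows. The site at the start of the principal transcript, from 71786611 to 71788197, and 3 sites in intron 1 at 14.4, 19.0 and 26.9 kb were called in all 10 libraries. Between and beyond these, 5 sites were present in every WENR library and absent from d4 ENR, at 3.34, 37.6, 44.8, 50.2 and 57.9 kb from the start. They lie in introns 1, 5, 9, 11 and 20, and the largest of them, from 71842337 to 71846743, was 4407 bp wide. Peaks covered 1664 and 1654 bases of it in WT WENR and 2826, 3752 and 4356 in AHR KO WENR. The enrichment of all these sites was low, with a fold enrichment of 1.76 to 2.24 in WENR, where fold enrichment is the pileup of fragments over the local background that MACS fitted. The pileup itself was not low at all of them. Relative to the mean coverage of the genome in the same library, it was 18.3 to 23.4 in WENR at 3.34 kb and 3.79 to 7.04 at the others. A site at −14.8 kb, from 71771255 to 71773887, had the highest median enrichment of the gene in WENR (4.92 to 5.74). It was called in 4 of 5 d4 ENR libraries, with WT d4 ENR replicate 1 as the exception.

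*Itgb4*, the beta chain that pairs with alpha 6, lies on the plus strand of chromosome 11 from 115974709 to 116008412 (ENSMUSG00000020758.15). Peaks covered 6242 and 6015 bases in WT WENR, 7646, 5863 and 7924 in AHR KO WENR, 2526, 2820 and 3897 in WT d4 ENR, and 4150 and 4479 in AHR KO d4 ENR. Both d4 ENR groups lay below WENR (−2939 bases, exact permutation p = 0.02, adjusted p = 0.0387), and in d4 ENR the lower AHR KO value exceeded the highest WT value. The start site, from 115974360 to 115976679, was called in all 10 libraries. Intron 28 held a site, from 115998224 to 116000363, that every WENR and no d4 ENR library contained, with a fold enrichment of 2.50 to 2.82 in WENR. The next site, in intron 35, followed it closely, called in all 5 WENR libraries and in AHR KO d4 ENR replicate 2 alone. The most enriched site of the window, in the downstream flank from 116012009 to 116013161, holds a start of the neighbouring gene *Galk1*.

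**Figure D2:**
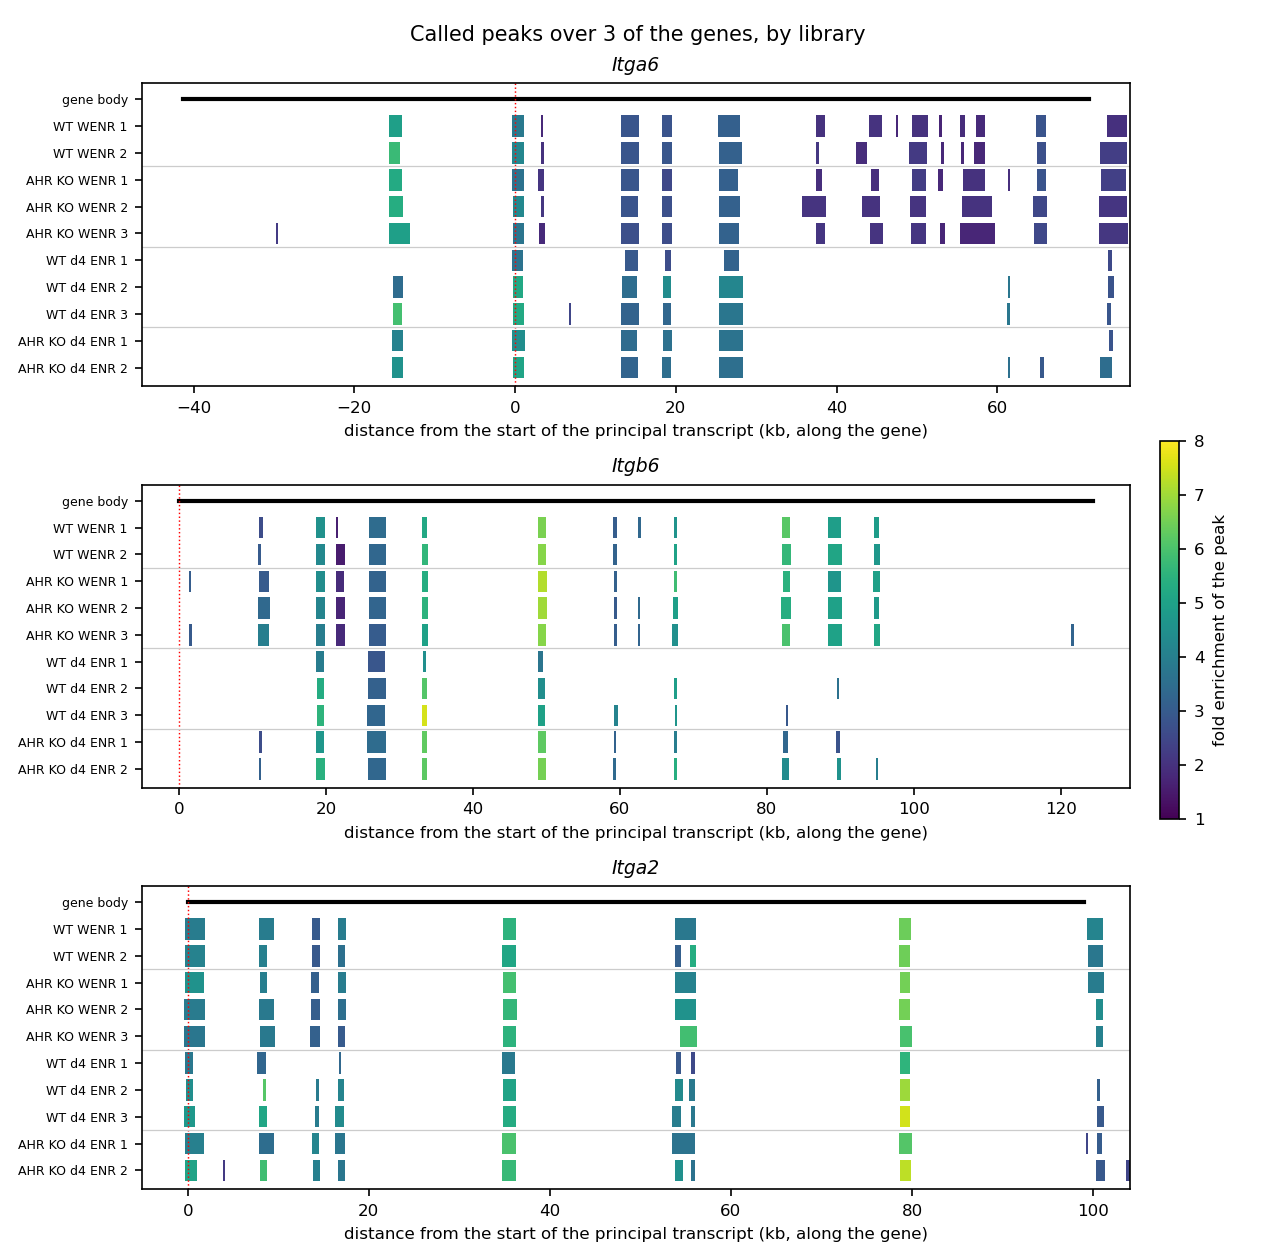
Called peaks over *Itga6*, *Itgb6* and *Itga2*, with 1 row per library, the distance along the gene from the start of its principal transcript in kb on the x axis, and the fold enrichment of each peak as its colour. The 5 WENR rows of *Itga6* carry low-enrichment peaks from 37.6 to 57.9 kb that none of the 5 d4 ENR rows has, and the *Itga2* peaks recur in nearly all rows.

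The collagen receptor chain *Itga2* behaved differently between genotypes by its values. It lies on the minus strand of chromosome 13 from 114833081 to 114932100 (ENSMUSG00000015533.9). Peaks covered 12583 and 10631 bases in WT WENR, 11432, 11600 and 11182 in AHR KO WENR, 5529, 6389 and 8490 in WT d4 ENR, and 12017 and 9399 in AHR KO d4 ENR. All WT d4 ENR libraries lay below all other libraries, whereas 1 AHR KO d4 ENR library lay above every AHR KO WENR library and the other lay below them. The medium difference over both genotypes did not pass the test (−2751 bases, exact permutation p = 0.08, adjusted p = 0.113), though it did with peaks of −log10 q of at least 5 (−4032 bases, exact permutation p = 0.02), by summed pileup, and without AHR KO d4 ENR replicate 1 (−3405 bases). The gene kept 58.6% of its WENR cover in WT and 93.9% in AHR KO. AHR KO minus WT was 3905 bases in d4 ENR and −202 bases in WENR, and the difference between these did not pass the test (4108 bases, exact permutation test within media, p = 0.1, adjusted p = 0.419 over all genes). That test exchanges genotypes within each medium and reaches its smallest p of 0.02 only where the genotypes separate in both media in opposite directions.

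No site of *Itga2* was lost in d4 ENR in both genotypes, and 6 of its 10 sites were called in all 10 libraries. The start site, from 114930187 to 114932472, stayed called but became narrower in WT: peaks covered 2138 to 2248 of its 2286 bp in WENR, 827, 753 and 1184 bp in WT d4 ENR, and 2099 and 1341 bp in AHR KO d4 ENR. The strongest site of the gene, in intron 23 from 114852094 to 114853560, had a fold enrichment of 5.96 to 6.52 in WENR, 5.54, 6.97 and 7.53 in WT d4 ENR, and 6.13 and 7.30 in AHR KO d4 ENR, and these ranges overlap. Its pileup relative to the mean coverage of the genome in the same library was 41.3 to 49.2 in WENR, 18.1, 26.1 and 31.7 in WT d4 ENR, and 33.9 and 47.8 in AHR KO d4 ENR. Of the 6 sites called everywhere, 5 had d4 ENR pileups that did not overlap, with AHR KO the higher, an order found at 31.2% of all sites called everywhere.

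*Itga3*, a laminin receptor chain, lies on the minus strand of chromosome 11 from 95044474 to 95076801 (ENSMUSG00000001507.16). Peaks covered 6574 and 6796 bases in WT WENR, 6110, 6740 and 6866 in AHR KO WENR, 3863, 3365 and 4760 in WT d4 ENR, and 5802 and 4626 in AHR KO d4 ENR. Every d4 ENR library lay below WENR (−2024 bases, exact permutation p = 0.02, adjusted p = 0.0387), and the genotypes overlapped within both media. With lists of equal length the medium difference was −1112 bases (exact permutation p = 0.04). The start site spans 3801 bp from 95074678 to 95078478. Peaks covered 3728 to 3775 bp of it in WENR, 2356, 1588 and 2687 in WT d4 ENR, and 3622 and 2552 in AHR KO d4 ENR. Its fold enrichment was 2.66 to 2.89 in WENR and 3.08 to 4.81 in d4 ENR, so that the site was narrower and more enriched over its own surroundings in d4 ENR. The site in intron 1 whose sequence is given above, from 95069796 to 95070682, was present throughout WENR and absent from d4 ENR. The most enriched site of the window holds a start of *Pdk2* in the downstream flank.

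*Itgb1*, the beta chain shared by the alpha 2, alpha 3 and alpha 6 receptors, lies on the plus strand of chromosome 8 from 128685654 to 128733200 (ENSMUSG00000025809.15). Peaks covered 4932 and 4093 bases in WT WENR, 4452, 4904 and 4930 in AHR KO WENR, 1882, 2267 and 2732 in WT d4 ENR, and 2770 and 3152 in AHR KO d4 ENR. With the full lists the media were well apart (−2010 bases, exact permutation p = 0.02, adjusted p = 0.0387). With all lists shortened to the length of the shortest, the difference was 847.9 bases in the opposite direction (exact permutation p = 0.02). The lower AHR KO d4 ENR library exceeded the highest WT d4 ENR library by few bases. The start site, from 128685132 to 128686590, was the most enriched of the gene in WENR (fold enrichment 6.02 to 6.35) and was called in all 10 libraries at 5.84 to 7.56 in d4 ENR. Intron 1 held a site, from 128697844 to 128698270, that the 2 AHR KO d4 ENR libraries had (333 and 383 bases) and none of the other 8. Another site in intron 1, at 18.2 kb, was called in all 5 WENR libraries and in WT d4 ENR replicate 3 alone.

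*Itgav*, the alpha chain of several RGD-binding receptors, lies on the plus strand of chromosome 2 from 83724397 to 83806916 (ENSMUSG00000027087.11). Peaks covered 5224 and 5309 bases in WT WENR, 5684, 5380 and 5784 in AHR KO WENR, 3371, 3229 and 3745 in WT d4 ENR, and 4394 and 4109 in AHR KO d4 ENR. The 4 groups did not overlap, with AHR KO above WT in each medium and WENR above d4 ENR in each genotype (−1591 bases, exact permutation p = 0.02, adjusted p = 0.0387). The start site, from 83723888 to 83725563, was called in all 10 libraries with a fold enrichment of 4.56 to 5.62 in WENR and 5.55 to 6.76 in d4 ENR. The most enriched site in WENR, in intron 1 from 83733617 to 83734558, had 5.40 to 6.60 there, 3.02, 3.23 and 4.56 in WT d4 ENR, and 4.21 and 6.24 in AHR KO d4 ENR. The intron 12 site, from 83771210 to 83771670, was missing from the 3 WT d4 ENR libraries and present in the other 7. Peaks covered 306 to 459 bases of it in WENR and 282 and 253 in AHR KO d4 ENR.

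*Itgb6*, the epithelial partner of alpha v, lies on the minus strand of chromosome 2 from 60598292 to 60722643 (ENSMUSG00000026971.15). Peaks covered 11294 and 11811 bases in WT WENR, 13088, 13705 and 14313 in AHR KO WENR, 4466, 5563 and 6192 in WT d4 ENR, and 7772 and 8608 in AHR KO d4 ENR. The 4 groups did not overlap, again with AHR KO above WT in each medium. The medium difference was −5829 bases (exact permutation p = 0.02, adjusted p = 0.0387), and WT kept 46.8% and AHR KO 59.8% of the WENR cover. With lists of equal length or with peaks of −log10 q of at least 5, the genotypes overlapped in d4 ENR.

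The outer annotated start of *Itgb6* held no peak, as said beside its sequence, and the nearest site, 1.45 kb into intron 1, was called in AHR KO WENR replicates 1 and 3 alone. The inner start lies in the site from 60672578 to 60673838 in the principal transcript's exon 4, which was called in all 10 libraries. Its fold enrichment was 6.59 and 6.72 in WT WENR, 7.18, 7.01 and 6.73 in AHR KO WENR, 3.72, 4.43 and 5.01 in WT d4 ENR, and 6.25 and 6.55 in AHR KO d4 ENR. No 2 of these groups overlapped, and the lowest values were those of WT in d4 ENR. Its pileup relative to the genome mean had the same order, at 17.5 and 18.2 in WT WENR, 19.4 to 21.8 in AHR KO WENR, 4.45 to 7.42 in WT d4 ENR, and 10.8 and 14.0 in AHR KO d4 ENR. Downstream of it, 3 sites in introns 10, 11 and 13, all called in the 5 WENR libraries, were called in 0 to 1 of the 3 WT d4 ENR libraries each. AHR KO d4 ENR replicate 2 held all 3 of them and replicate 1 held the sites in introns 10 and 11. The pileup at the intron 10 site, from 60639417 to 60640735, was 20.3 to 36.8 times the genome mean in WENR and 3.50 to 5.39 times in the 3 d4 ENR libraries with a peak. A further site in intron 1, from 60710257 to 60711911, was held by both AHR KO but no WT library in d4 ENR, and another, from 60700127 to 60701291, by the WENR libraries alone. The pileup at the latter was 20.3 to 31.8 times the genome mean in WENR, at a fold enrichment of 1.54 to 1.85.

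**Figure D3:**
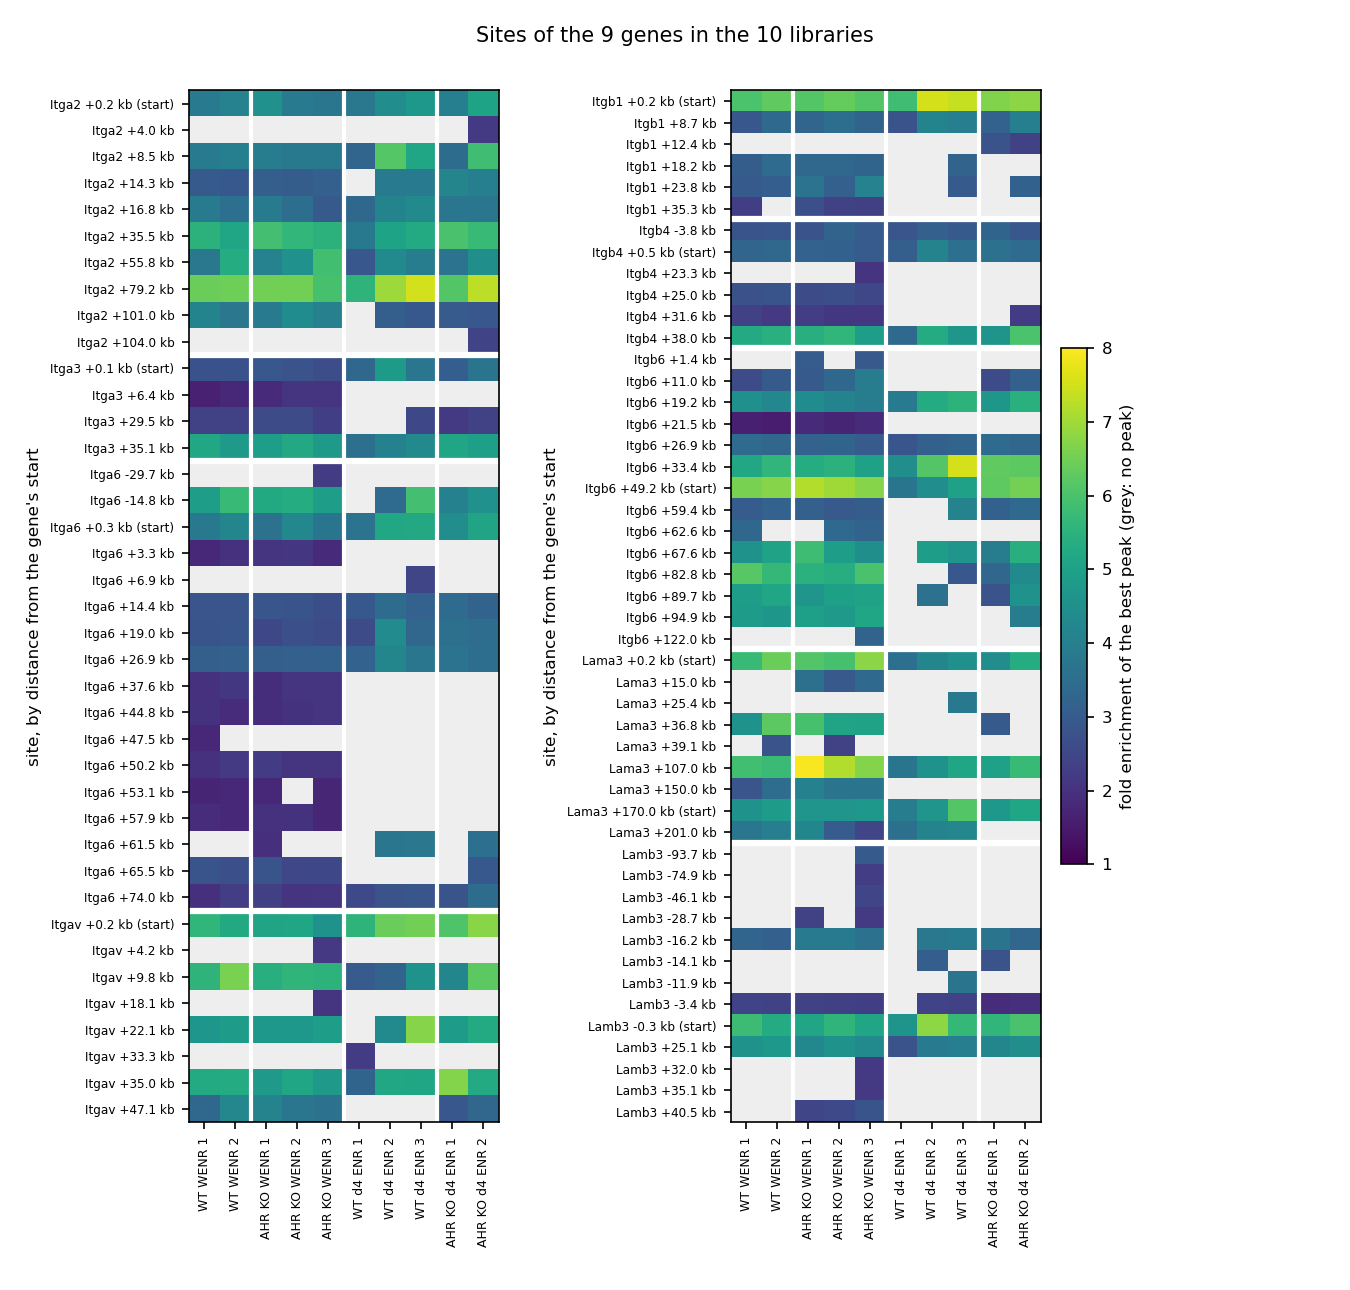
The 87 sites of the 9 genes (rows, named by their distance from the start of the principal transcript, with "start" where an annotated start of the gene lies inside) in the 10 libraries (columns). Colour is the fold enrichment of the best peak on a linear scale from 1 to 8, and grey marks no peak. The 10 rows with a start are filled in all 10 columns, the *Itga6* block from 37.6 to 57.9 kb is filled in WENR columns only, and AHR KO WENR replicate 3 alone fills several rows of *Lamb3*.

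*Lama3*, the alpha chain of laminin-332, lies on the plus strand of chromosome 18 from 12333819 to 12583013 (ENSMUSG00000024421.16). Peaks covered 4819 and 5266 bases in WT WENR, 4888, 6312 and 5459 in AHR KO WENR, 3086, 2952 and 3198 in WT d4 ENR, and 3496 and 3147 in AHR KO d4 ENR. Every d4 ENR library lay below every WENR library (−2098 bases, exact permutation p = 0.02, adjusted p = 0.0387), and the genotypes overlapped in both media. Its site at the principal start, from 12333452 to 12334683, was less enriched in d4 ENR, with a fold enrichment of 5.75 to 6.78 in WENR, 3.57, 4.2 and 4.5 in WT d4 ENR, and 4.42 and 5.33 in AHR KO d4 ENR. The site of highest enrichment, in intron 13 from 12440100 to 12441102, had 5.87 and 5.76 in WT WENR, 7.92, 7.19 and 6.69 in AHR KO WENR, and 3.73 to 5.73 in d4 ENR. Intron 32 held a site, from 12483960 to 12484583, present throughout WENR and absent from d4 ENR. The genotypes differed at 2 further sites in opposite directions. The site in intron 1, from 12348327 to 12349206, was called in all 3 AHR KO WENR libraries and in no other library, and the site in intron 55, from 12534588 to 12535026, was called in all libraries other than both AHR KO d4 ENR libraries.

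*Lamb3*, the beta chain of laminin-332, lies on the plus strand of chromosome 1 from 193207699 to 193343878 (ENSMUSG00000026639.18). Peaks covered 3474 and 3685 bases in WT WENR, 4215, 4822 and 8022 in AHR KO WENR, 1965, 3392 and 4168 in WT d4 ENR, and 4251 and 4028 in AHR KO d4 ENR. The media overlapped in both genotypes (−976 bases, exact permutation p = 0.24, adjusted p = 0.287). AHR KO WENR replicate 3 stood apart with 11 called sites against 4 to 6 in the other WENR libraries, and 5 of its sites no other library had. The annotated gene body reaches to −94.294 kb from the principal start. Those of its own sites at −93.7, −74.9 and −46.1 kb lie there, outside the principal transcript. Without AHR KO WENR replicate 3, AHR KO still lay above WT in WENR, and the medium difference was −391.8 bases. With 20 kb on each side, or by summed pileup, all d4 ENR libraries of each genotype lay below WENR (−2258 bases with 20 kb, exact permutation p = 0.02). The site at the principal start, from 193301123 to 193302633, was called in all 10 libraries, with a fold enrichment of 5.13 to 5.81 in WENR and 4.61 to 6.81 in d4 ENR. Another site, in intron 22 from 193341891 to 193343263, was found in the 3 AHR KO WENR libraries (290, 913 and 1118 bases) and in no other library.

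Between genotypes in d4 ENR, AHR KO had more of its length inside peaks by the group means of all 9 members, and for 5 of them the lower AHR KO value exceeded the highest of the 3 WT values (*Itga2*, *Itgav*, *Itgb1*, *Itgb4* and *Itgb6*). That order held for 54.4% of all genes tested, and the smallest p that 10 arrangements allow is 0.2. The count was 9 without WT d4 ENR replicate 3, where 75.4% of genes had that order, and 8 without AHR KO d4 ENR replicate 2, where 62.5% had it. With lists of equal length the count was 7, beside 52.2% of genes. The ratio of AHR KO to WT ran from 1.079 for *Lama3* to 1.574 for *Itga2*, with a median of 1.30 beside 1.32 over all genes with cover in WT d4 ENR. Divided by the library's total of covered bases, none of the 9 had both AHR KO above all WT d4 ENR libraries, beside 9.76% of genes. On that scale the mean of AHR KO lay below that of WT for 7 members, and *Itga6*, *Itgb1* and *Lama3* had all WT above both AHR KO libraries, an order found for 24.1% of genes. In WENR the ratios ran from 0.983 for *Itga2* and *Itga3* to 1.589 for *Lamb3*. *Itga6*, *Itgav*, *Itgb6* and *Lamb3* had all 3 AHR KO libraries above both WT libraries there, beside 11.8% of all genes, and no member had the reverse order, beside 11.1% of genes. The count of 4 in WENR was 1 with lists of equal length, beside 8.55% of genes. It was 2 with peaks of −log10 q of at least 5 and 1 by summed pileup, for which no share of all genes is given here. The difference of the genotype effect between the media gave p-values of 0.1 to 0.78 by exact permutation for the 9 genes. The smallest p of this test needs genotypes that separate in opposite directions in the media, so a genotype effect in d4 ENR alone need not pass it.

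**Figure D4:**
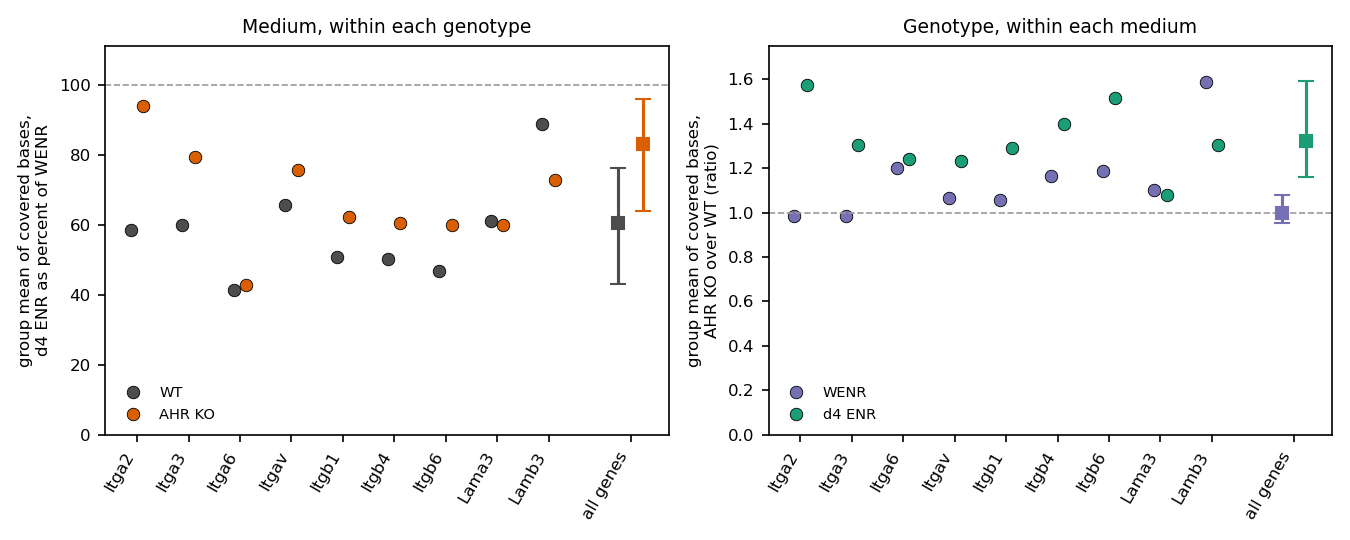
Group means of covered bases for the 9 genes, as d4 ENR in percent of WENR within each genotype (left) and as the ratio of AHR KO to WT within each medium (right), on linear axes from 0. Squares with bars give the median and quartiles over all protein-coding genes that have cover in the denominator; *Itga6* lies lowest on the left in both genotypes, and *Itga2* and *Lamb3* lie highest on the right in d4 ENR and WENR.

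Seen by site, 30 of the 87 sites were called in all 10 libraries, beside 32.9% of all sites. All 10 sites with an annotated start of the gene itself were among them, and of the other 77 sites 20 were. Another gene's start lay in 5 of the 87. In WENR 59 sites were called in all 5 libraries. No site was called in all d4 ENR libraries and no WENR library, a pattern that 272 of all 85680 sites had. The sites lost in d4 ENR in both genotypes numbered 9, all intronic, beside 5.46% of all sites, and 5 of the 9 were those of *Itga6*. They had a median width of 2140 bp, beside 784 bp for all lost sites. In 7 of the 9 the fold enrichment was 1.54 to 2.24 in every WENR library, below 2.26, the 1st percentile of enrichment in the d4 ENR list with the highest such value. Among all lost sites 4.15% lay below it in every WENR library. Peaks enriched less than 2.2-fold made up 4.17 to 6.69% of the WENR lists and 0.772 to 2.47% of the d4 ENR lists, and the part of this difference in the losses was not tested. With lists of equal length 3 sites were lost, beside 2.93% of all sites, and with peaks of −log10 q of at least 5 the members lost 6 sites, beside 12.1%.

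Sites called in AHR KO alone numbered 3 in d4 ENR (in *Itgav*, *Itgb1* and *Itgb6*), beside 3.67% of the sites called there, and 2 in WENR (in *Lama3* and *Lamb3*), beside 1.34%. None of the 5 remained with lists of equal length. The d4 ENR count also depended on single libraries, being 6 without WT d4 ENR replicate 3 and 8 without AHR KO d4 ENR replicate 1. The WENR count was 4 without AHR KO WENR replicate 2. Leaving out a library makes these calls easier to meet at all sites of the genome. Shares over all sites are not given here for the counts without a library. Of the 17 sites called in a single library, AHR KO WENR replicate 3 held 10.

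At the 30 sites called in every library, pileup and enrichment gave different pictures of the medium. The pileup relative to the genome mean was lower in all d4 ENR than in all WENR libraries of the same genotype at 23 sites, beside 68.9% of all sites called everywhere. The fold enrichment, which sets a peak against its own surroundings, was lower at 3 sites, beside 15.0%, and higher at 4, beside 8.18%. The 3 were the inner start of *Itgb6* and the sites of *Lama3* at its principal start and in intron 13, and the 4 were the start of *Itga3* and *Itga6* sites at 14.4, 26.9 and 74.0 kb. Between genotypes in d4 ENR, pileups did not overlap and AHR KO was the higher at 19 of the 30 sites, beside 31.2%. WT had the higher at none, beside 0.22%. The fold enrichment was higher in AHR KO at 6 sites, beside 12.5%. Those 6 lay in *Itga2* at 35.5 kb, *Itgav* at 35.0 kb, *Itgb6* at 26.9 and 49.2 kb and *Lamb3* at 25.1 kb, with the 6th at the *Pdk2* start beside *Itga3*. In WENR the pileup was higher in AHR KO at 12 sites, beside 25.7%, and in WT at 3, beside 8.38%. The fold enrichment in WENR was higher in AHR KO at 2 sites, beside 10.8%, and in WT at 5, beside 11.6%.

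Of the letters searched, those of TEAD were found in the central 300 bases of 17 of the 87 sites (19.5%), beside 10.6% of all 85680 sites. AP-1 letters were found in 18 (20.7%), beside 17.8% of all sites, AHR:ARNT letters in 4 (4.60%), beside 3.84%, and ETS letters in none, beside 1.28%. Among the 30 sites called everywhere 6 carried TEAD letters (beside 8.74% of all such sites) and 3 AP-1 letters (beside 14.5%). Of the 9 lost sites 1 carried TEAD letters in its central 300 bases (in *Itga3*) and 3 AP-1 letters (in *Itga6*, *Itgb6* and *Lama3*), beside 15.0% and 32.7% of all lost sites of the genome. Outside that window, TEAD letters also lay in the lost sites of *Itga6* at 37.6, 44.8 and 50.2 kb and of *Itgb4*. AP-1 letters also lay outside it in the lost site of *Itga6* at 57.9 kb. Whole widths were not searched over all sites of the genome. *Itgb6* carried both kinds in the centre of the sites at 19.2, 82.8, 94.9 and 122 kb. The 2 RefSeq promoter windows of 300 bases with TEAD letters among those listed for the members were those of *Itgb1* and of the inner of the *Lamb3* starts, beside 7.0% of all 32851 windows. RefSeq windows were matched for *Itga2*, *Itga3*, *Itgav*, *Itgb1*, *Itgb6* and *Lamb3*.

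Partners of the 9 genes were counted from lists chosen by family. Of 19 other integrin genes with a peak, 9 were covered less in d4 ENR in both genotypes and none more, beside 51.3% of all genes covered less, and 8 were covered more in AHR KO in d4 ENR, beside 54.4% of all genes. *Itgb8*, another partner of alpha v, was covered over 5806 bases in WT and 6824 in AHR KO WENR and over 949 in WT and 3208 in AHR KO d4 ENR by its group means. *Itgb3*, also a partner of alpha v, had no peak in d4 ENR. *Itga5*, the fibronectin receptor chain that pairs with beta 1, kept 35.7% of its WENR cover. These 3 lost more than most of their list: *Itgb5* kept 67.7%, and the median share over the other integrin genes was 76.7%, beside 71.6% over all genes. Of 8 other laminin genes with a peak, 5 were covered less in d4 ENR and 6 more in AHR KO in d4 ENR, beside the same 51.3% and 54.4% of all genes.

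Of the hemidesmosome and tetraspanin genes, *Plec*, *Dst* and *Col17a1* were covered less in d4 ENR in both genotypes, and the tetraspanin *Cd151*, which kept 91.3%, was not. *Col17a1*, a transmembrane collagen of hemidesmosomes, kept 24.0%. Of 17 focal adhesion genes 16 were covered less in d4 ENR, beside 51.3% of all genes, with a median share of 57.9%, beside 71.6%. In d4 ENR 12 of them were covered more in AHR KO, beside 54.4%. The exception for the medium was *Tln1* (talin), which links integrin tails to actin, and *Vcl* (vinculin), which binds talin, kept 35.2%.

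The genes whose cover over the 10 libraries followed the mean profile of the 9 most closely were *Lgr5*, the receptor known as a marker of intestinal stem cells (Pearson r = 0.996), *Ankrd11* (r = 0.996) and *Akap9* (r = 0.995). They were taken from 13686 genes with a mean of at least 1 kb in peaks, of which 32.7% had an r above 0.9, and all these profiles share the libraries' total cover.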

How the data were processed

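The 10 Omni-ATAC-seq libraries, made from organoids of the mouse colon, were grouped by the genotype and medium in their labels. Reads were aligned to GRCm38 with BWA in nf-core/atacseq, and for every library on its own the authors called peaks with MACS 2.2.7.1 in broad mode (broad q 0.1, narrow q 0.05, no control, background window 10000 bp). Of the deposited values, pileup is a coverage signal that the authors did not scale for depth, fold enrichment is the ratio of pileup to local background, and −log10 p and q values were used to rank and filter peaks. Pileup was divided here by the library's mean coverage over an effective genome of 1.87 Gb.

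Covered bases were counted over gene bodies with 5 kb on each side. Orders between groups were called where groups did not overlap, and differences were tested with exact permutation tests, 2-sided (2 times the smaller tail): 100 arrangements for the medium within genotypes, 10 for genotype within a medium. The study's count model was not run, since read counts were not used here. The members, lists and tests were chosen with earlier results of these data known. All 9 members are named. Sites are named at annotated starts, at the highest median enrichment in WENR, and where they part the groups. Distances run from the start of the APPRIS principal transcript with the lowest identifier, to the middle of the stretch called in most libraries. Sequences are from RefSeq (GRCm38.p6). Alternatives were lists of equal length (33433 peaks), −log10 q of at least 5, gene bodies alone, 20 kb on each side, covered bases or pileup scaled by library, at least 50% of a site covered, sites called in at least 2 libraries, a block for the replicate number, and leaving out 1 library at a time. Python 3.11.15, numpy 2.4.6 and pandas 2.3.3 were used, and the procedures were tested on simulated data. Fragments per library ranged from 30354729 to 49126792.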

Additional observations from a re-analysis of the deposited data

How the results depend on the processing

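With every list shortened to 33433 peaks, members covered less in d4 ENR numbered 4 in place of 7, beside 34.9% of genes. Members covered more in AHR KO in WENR numbered 1 in place of 4, beside 8.55% of genes. Lost sites numbered 3 in place of 9, and AHR KO-only sites 0 in both media. The median share rose to 82.8%, beside 83.0% over all genes. With these lists the medium difference of *Itgb1* turned to 847.9 bases (exact permutation p = 0.02). Members covered more in AHR KO in d4 ENR then numbered 7 in place of 5, beside 52.2% of genes. With peaks of −log10 q of at least 5, the WENR count was 2, and AHR KO-only sites numbered 0 in d4 ENR and 1 in WENR. Per covered Mb, members less covered in d4 ENR numbered 2, members more covered in AHR KO in d4 ENR 0, and the median share was 98.3%, beside 112.0% over all genes. On that scale the medium difference turned positive for *Itga2* (31.94 bases per covered Mb), *Itga3* (10.71), *Itgav* (11.42) and *Lamb3* (17.29), and AHR KO minus WT in d4 ENR turned negative for *Itga3* (−14.35), *Itga6* (−38.44), *Itgav* (−18.70), *Itgb1* (−8.52), *Itgb4* (−3.871), *Lama3* (−26.99) and *Lamb3* (−8.311). By pileup times length scaled to the fragments of the library, the AHR KO count was 9 in d4 ENR, beside 81.5% of genes, and 1 in WENR, and the median share was 36.8%, beside 38.5%. With at least 50% of a site covered, AHR KO-only sites in d4 ENR numbered 6, and the share over all sites is not given here. Apart from the scaling itself and the smaller lists, the cause of these changes was not tested.

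Leaving out each library in turn gave 7 to 8 members less covered in d4 ENR, 5 to 9 more covered in AHR KO in d4 ENR (beside 54.4 to 75.4% of genes), 4 to 6 in WENR (beside 11.8 to 27.0%), median shares of 58.6 to 62.6%, 9 to 12 lost sites, and 3 to 8 AHR KO-only sites in d4 ENR and 2 to 4 in WENR. Leaving out both WT d4 ENR replicate 1 and AHR KO WENR replicate 3, chosen after the data were seen, changed none of these 7 values other than the median share, which was 60.1%. With fewer libraries the calls are easier to meet at all sites, and shares over all sites are not given for the site counts. Same-numbered libraries did not deviate together across media within a genotype (correlations of −0.0384 to 0.0102). Between genotypes the same-number correlations were 0.0897 and −0.0196 in WENR and 0.164 and 0.0492 in d4 ENR, with 2 pairs each. With the replicate number as a block, members more covered in AHR KO numbered 9 in d4 ENR, beside 81.2% of genes, and 5 in WENR, beside 21.5%, and 7 were less covered in d4 ENR. Gene bodies alone, 20 kb on each side and sites called in at least 2 libraries left each of these counts within 1.5 times its value.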
